A study of Mus musculus with 10 samples.

Results

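Cardiolipin (CL) is assembled and remodeled by a short chain of mitochondrial and endoplasmic reticulum proteins, and 10 genes for these proteins were followed in interscapular brown adipose tissue (iBAT). They were chosen by their place in the pathway and are Cds1, Cds2, Tamm41, Prelid1, Triap1, Pgs1, Ptpmt1, Crls1, Taz and Lclat1. All 10 were among the 15075 genes with values. Polyadenylated RNA was sequenced from iBAT of 5 Control and 5 AdCKO mice, with 1 library per mouse. AdCKO mice carried Adipoq-Cre, which is driven by the adiponectin promoter and is active in white as well as brown adipocytes, together with Crls1 alleles whose exon 4 is flanked by loxP sites. Control mice, which the labels call wild-type, carried the same floxed Crls1 alleles without Cre. All mice were given as C57BL/6, 20 weeks of age and housed at room temperature. The Cre was not directed at the blood vessel, connective tissue and immune cells of the depot, whose RNA is part of every library.

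CL is the characteristic phospholipid of the mitochondrial inner membrane, where it binds respiratory complexes and carriers, and brown fat is rich in it. Phosphatidic acid is joined to CTP to give CDP-diacylglycerol, which reacts with glycerol-3-phosphate to give phosphatidylglycerol phosphate and, after loss of a phosphate, phosphatidylglycerol. Cardiolipin synthase couples phosphatidylglycerol with a further CDP-diacylglycerol to form nascent CL, whose acyl chains are then exchanged by remodeling enzymes.

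The deletion acts on a short stretch of Crls1, which is shown here because every later comparison rests on it. Crls1 (NM_001024385) lies on the plus strand at chr2:132672402-132692504 in the mouse build mm9, and its transcript has 7 exons. Exon 4, at chr2:132686945-132687030, has 86 bases, all of them coding. Because 86 is not a multiple of 3, joining exon 3 to exon 5 shifts the reading frame. In the reference sequence, 192 complete codons of 303 precede exon 4. After the joint, 4 altered codons are followed by a TAA stop within exon 5. The sequences, read from the mm9 reference, are exon 4 as the floxed allele carries it, then the last 30 bases of exon 3 (chr2:132680729-132680758) joined to the first 14 of exon 5 (chr2:132688071-132688084), with capitals marking the new in-frame stop.
Crls1 exon 4: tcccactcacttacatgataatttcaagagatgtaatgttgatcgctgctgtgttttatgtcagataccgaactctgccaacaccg
Exon 3 joined to exon 5: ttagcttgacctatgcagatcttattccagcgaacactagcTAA

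Crls1 itself, which encodes cardiolipin synthase, was the gene that changed most among the 10. Its level was 1291, 927, 813, 1101 and 1170 normalized reads per kb of exon in Control libraries 1 to 5. In AdCKO libraries 1 to 5 it was 193, 195.5, 249, 208 and 242. Every AdCKO library therefore matched its label, with the highest of them well below the lowest Control library. The mean fell from 1060 ± 191 (SD, n = 5) to 217 ± 26.4 (SD, n = 5), which left 20.5% of the Control level. On the log2 scale the fold change was −2.27 ± 0.13 (SE, adjusted p = 3.53e-08 by limma with Benjamini-Hochberg adjustment), and 0.356% of the 11244 tested genes had a lower one. Reads were counted over 1907 bases of the transcript, of which exon 4 makes up 4.51%, so more was lost than the share of the deleted exon. Which cells gave the remaining reads was not tested.

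The groups differed in the RNA of cell type markers as well as in genotype. The values of the 8 adipocyte markers summed to 181500 to 216500 normalized reads per kb in Control and 123100 to 146400 in AdCKO, with 6 of 8 lower in AdCKO. Of all tested genes, 28.0% were lower and 25.6% higher. Fabp4 made up most of this sum, at 147200 ± 11860 in Control and 108200 ± 6258 in AdCKO (SD, n = 5). It was not called itself (limma adjusted p = 0.0205). Those of the 10 brown adipocyte markers summed to 62550 to 85260 and 18700 to 39820, with 6 of 10 lower and 0 higher. Ucp1, the uncoupling protein that defines brown fat, was 36910 ± 8713 in Control and 14070 ± 4478 in AdCKO (SD, n = 5), lower in AdCKO without overlap (limma adjusted p = 0.000274). Dio2 went the other way, from 161.5 ± 80.6 to 284.6 ± 69.9 (SD, n = 5), and was not called (limma adjusted p = 0.0145). Elovl3, Zic1 and Ppara were not called either. Macrophage markers (10 genes) summed to 503 to 1608 in Control and 6580 to 8959 in AdCKO (9 of 10 higher), and fibroblast markers (5 genes) to 799 to 1112 and 2971 to 4272 (5 of 5 higher). Endothelial markers summed to 1397 to 1792 and 1486 to 2095, with 2 of 6 higher, and lymphocyte markers (6 genes, 4 tested) to 33.2 to 51.3 and 35.4 to 195, with 0 of 4 called by limma and 1 of 4 at an unadjusted p under 0.05. Skeletal muscle markers (10 genes, 1 called higher) summed to 126 to 160.5 in Control and to 173 and 159 in AdCKO 3 and 5, but to 7082, 28280 and 10970 in AdCKO 1, 2 and 4. Acta1, the called marker, was 93.3 and 74.5 in AdCKO 3 and 5, above the Control range of 39.4 to 56.1. The other muscle markers of AdCKO 3 and 5 lay within or below the Control range, apart from Myh4 in AdCKO 3. No marker of any list was at 0 in a library. In whole tissue a loss of cells of a type and less RNA per cell cannot be told apart, and the part of cell makeup in the values below was not tested.

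In Control iBAT, cardiolipin synthase mRNA stood at the top of the pathway. Per kb of exon the order of mean levels was Crls1, Prelid1, Ptpmt1, Taz, Triap1, Lclat1, Cds2, Pgs1, Cds1 and Tamm41, from 1060 down to 65.7. Crls1 exceeded 95.8% of all tested genes and was above Prelid1 in all 5 Control libraries, although the ranges of both genes overlapped. Neighbours in this order whose ranges did not overlap were Prelid1 above Ptpmt1 (2.00-fold), Ptpmt1 above Taz (1.61-fold), Triap1 above Lclat1 (1.80-fold) and Pgs1 above Cds1 (1.44-fold). The ranges of the other neighbours overlapped, although Cds1 was above Tamm41 in all 5 Control libraries (1.18-fold).

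In AdCKO iBAT the order became Prelid1, Ptpmt1, Crls1, Triap1, Lclat1, Taz, Cds2, Pgs1, Tamm41 and Cds1, with non-overlapping neighbours only at Prelid1 above Ptpmt1 (2.64-fold) and Pgs1 above Tamm41 (1.64-fold). Crls1 was still above 81.1% of tested genes. Its share of the summed level of the 10 genes went from 33.7% ± 4.50 (SD, n = 5) to 10.9% ± 1.24 (SD, n = 5), while that of Prelid1 went from 24.4% to 35.0%. The sum itself was 3127 ± 164 in Control and 1997 ± 26.2 in AdCKO (SD, n = 5). Without Crls1, the other 9 genes summed to 2067 ± 62.7 and 1780 ± 21.7 (SD, n = 5).

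**Figure D1:**
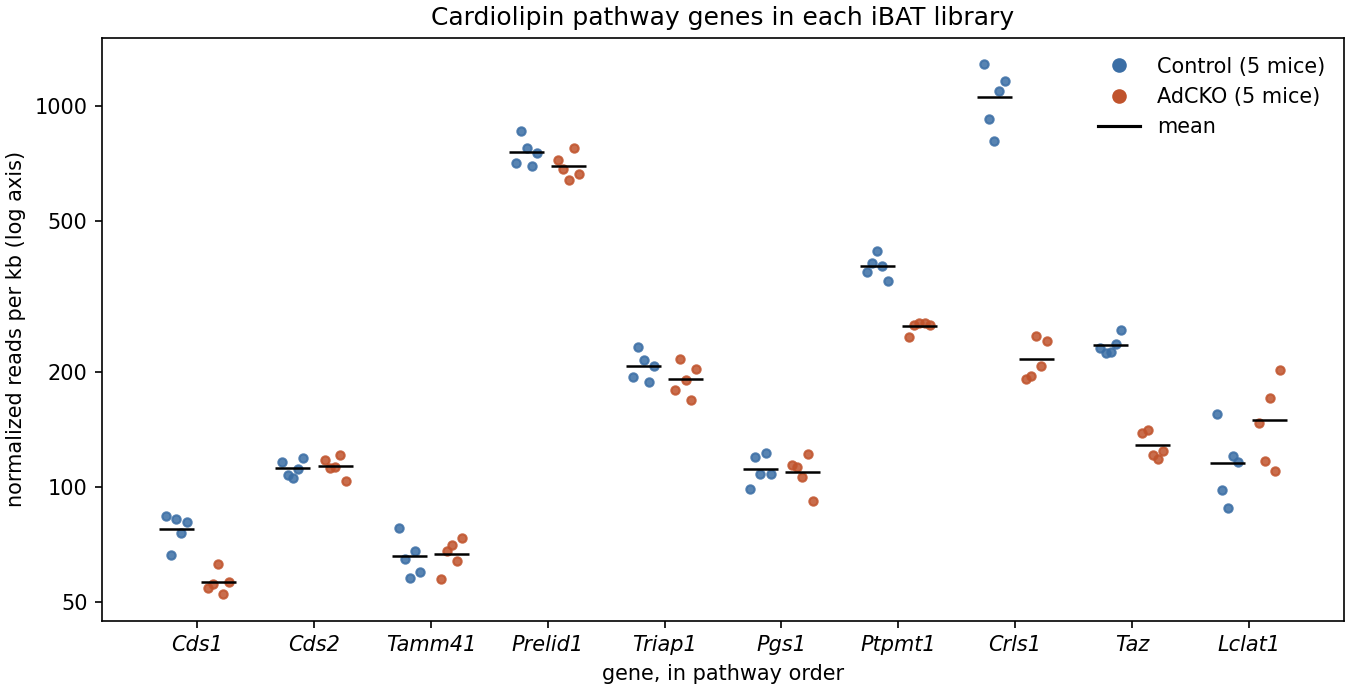
Level of the 10 cardiolipin pathway genes in each of 5 Control (blue) and 5 AdCKO (orange) iBAT libraries, in normalized reads per kb of exon on a log axis, with black bars at the group means. Crls1, Taz, Ptpmt1 and Cds1 separate the groups without overlap, whereas the points of the other 6 genes overlap.

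Of the 10 genes, 4 were lower in AdCKO at a limma adjusted p under 0.01 (Crls1, Taz, Ptpmt1 and Cds1), 0 were higher (0 also at an unadjusted p under 0.05) and 6 did not pass. The same 4 were the ones whose groups did not overlap. Changes of this kind were frequent in AdCKO iBAT, where 28.0% of the 11244 tested genes were lower, 25.6% were higher and 26.4% were lower without overlap of the groups, so a count of 4 in 10 is not read as a feature of the pathway. All 10 genes passed the filter for low values, and their median log2 fold change was −0.12, against −0.011 over all tested genes.

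The activated precursor, CDP-diacylglycerol, is made by 3 of the genes, and of these Cds1 fell. Cds1 (NM_173370, chr5:102194149-102252871, plus strand) encodes a CDP-diacylglycerol synthase of the endoplasmic reticulum. Its levels were 84.0, 66.1, 82.2, 76.0 and 80.7 in Control 1 to 5 and 54.2, 55.6, 62.6, 52.2 and 56.1 in AdCKO 1 to 5. The highest AdCKO library, AdCKO 3, stayed under the lowest Control library, Control 2. The means were 77.8 ± 7.19 and 56.2 ± 3.92 (SD, n = 5), and the fold change was −0.46 ± 0.08 in log2 units (SE, limma adjusted p = 0.000282). With only AdCKO 3 and 5, which held little muscle signal, it was −0.38 (limma adjusted p = 0.020) and no longer passed.

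Cds2 (NM_138651, chr2:132088884-132137786, plus strand), the second synthase of the endoplasmic reticulum, lay between 106 and 119 in Control and between 104 and 122 in AdCKO. Its log2 fold change was 0.021, with a 95% interval of −0.12 to 0.16. Tamm41 (NM_026894, chr6:114954399-114987892, minus strand), the synthase of the mitochondrial inner membrane, ranged from 57.8 to 78.2 and from 57.4 to 73.6. Its log2 fold change was 0.024 (−0.18 to 0.23). Neither of these 2 genes passed the test (limma adjusted p = 0.79 and 0.84).

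Delivery of phosphatidic acid to the inner membrane rests on a complex of Prelid1, the lipid carrier, and Triap1, its small partner in the intermembrane space. Prelid1 (NM_025596, chr13:55423416-55426633, plus strand) lay between 696 and 865 in Control and between 640 and 776 in AdCKO, with a log2 fold change of −0.12 (95% interval −0.29 to 0.05, limma adjusted p = 0.19). Triap1 (NM_026933, chr5:115791256-115793561, plus strand) ranged from 189 to 234 and from 170 to 217, with a log2 fold change of −0.11 (−0.29 to 0.07, limma adjusted p = 0.26). The lower end of both intervals lay above the fold changes of Taz, Ptpmt1 and Cds1. Mxd3 on the opposite strand covers 104 of the 1088 bases of the Prelid1 transcript, and reads were counted over 984.

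The phosphatidylglycerol steps split. Pgs1 (NM_133757, chr11:117848171-117885325, plus strand), which makes phosphatidylglycerol phosphate, lay between 99.0 and 123 in Control and between 91.8 and 122 in AdCKO, and its log2 fold change was −0.031 (95% interval −0.22 to 0.16, limma adjusted p = 0.77). Dnahc17 on the opposite strand overlaps 245 bases of Pgs1 exons in the annotation, and the sources used here do not say whether counting used strand. Ptpmt1 (NM_025576, chr2:90750870-90758207, minus strand) encodes the mitochondrial phosphatase that turns this product into phosphatidylglycerol. Ptpmt1 levels were 368, 388, 416, 380.2 and 349 in Control 1 to 5 and 248, 267, 269, 269.9 and 267 in AdCKO 1 to 5. All AdCKO libraries lay below all Control libraries, and the CV within AdCKO was 3.46%. The means were 380.2 ± 24.9 and 264 ± 9.15 (SD, n = 5), or 69.5% of Control, and the fold change was −0.52 ± 0.06 in log2 units (SE, limma adjusted p = 1.3e-05). The pseudogene Gm17661, on the opposite strand, overlaps 270 bases of Ptpmt1 exons.

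Both remodeling enzymes were measured, and they did not move alike. Taz (NM_181516, chrX:71528057-71535490, plus strand) encodes tafazzin, the transacylase that restores mature CL from monolysocardiolipin and is mutated in Barth syndrome. Taz levels were 232, 225, 226.5, 238 and 258 in Control 1 to 5. They were 139, 141.5, 121, 119 and 124 in AdCKO 1 to 5. No AdCKO library came near the Control range, and the means were 236 ± 13.4 and 129 ± 10.5 (SD, n = 5), or 54.6% of Control. In log2 units it changed by −0.87 ± 0.07 (SE, limma adjusted p = 5.47e-07), and 8.24% of tested genes had a lower fold change. AdCKO 3 and 5, with little muscle signal, stood at 121 and 124, within the range of the other AdCKO libraries.

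Lclat1 (NM_001177967, chr17:73457325-73592706, plus strand) encodes an acyltransferase of the endoplasmic reticulum that can reacylate lysocardiolipin. Its levels were 156, 98.1, 88.3, 120 and 116 in Control 1 to 5 and 147, 117, 171.5, 110.5 and 203.5 in AdCKO 1 to 5. The groups overlapped, and the CVs of 22.5% and 25.8% were the widest of the 10 genes in each group. The means were 116 ± 26.0 and 150 ± 38.7 (SD, n = 5), and the log2 fold change of 0.36 (95% interval −0.04 to 0.76) did not pass the test (limma adjusted p = 0.10). AdCKO 3 and 5, the AdCKO libraries with little muscle signal, held the highest Lclat1 values. They also held the highest brown adipocyte marker sums of AdCKO, at 33730 and 39820 against 18700 to 25480 in AdCKO 1, 2 and 4, and lay apart on the second principal component (−29.4 and −24.7 against 8.26 to 20.8). The part of either in the Lclat1 values was not tested. Against Control these alone gave 0.71 in log2 units (limma adjusted p = 0.00833), and AdCKO 1, 2 and 4 alone gave 0.12 (limma adjusted p = 0.55).

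Crls1, Lclat1 and Tamm41 shared some of their order within a genotype. Control 1 was highest and Control 3 lowest for each of them, and AdCKO 3 and 5 were the 2 highest AdCKO libraries. Cds1 shared the AdCKO part of this order, so it is not particular to any pair of genes. No correlation was computed over 5 libraries of a group.

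These fold changes depend on how libraries are set against each other. The authors normalized the libraries with DESeq2, and the total of the deposited values per library, summed over genes as level times exon length, lay between 7615403 and 8171138 in Control and between 5419800 and 5843024 in AdCKO, or 71.6% of Control (p = 0.0079 by an exact permutation test, two-sided, which is the lowest p of 5 against 5 libraries). When every library was given the same total, the median fold change of all tested genes rose by 0.47 in log2 units. Under that scaling Crls1 (−1.79) and Taz (−0.39, limma adjusted p = 0.000375) were still lower, whereas Ptpmt1 (−0.041) and Cds1 (0.014) no longer passed and the other 6 genes were called higher (0.36 to 0.84), where 9.77% of all tested genes were called lower and 60.6% higher. Set against the median of all genes, the differences were −2.25 for Crls1, −0.85 for Taz, −0.50 for Ptpmt1 and −0.45 for Cds1. These had to be close to those under the deposited normalization. A factor applied to a whole library shifts all genes alike, apart from the pseudocount. Quantile normalization, which gives all libraries the same distribution of values, kept the calls of all 4 genes and called no other of the 10, where 31.1% of tested genes were lower and 22.4% higher. Set against its own median of all genes, it gave −1.99 for Crls1, −0.71 for Taz, −0.29 for Ptpmt1 and −0.45 for Cds1.

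**Figure D2:**
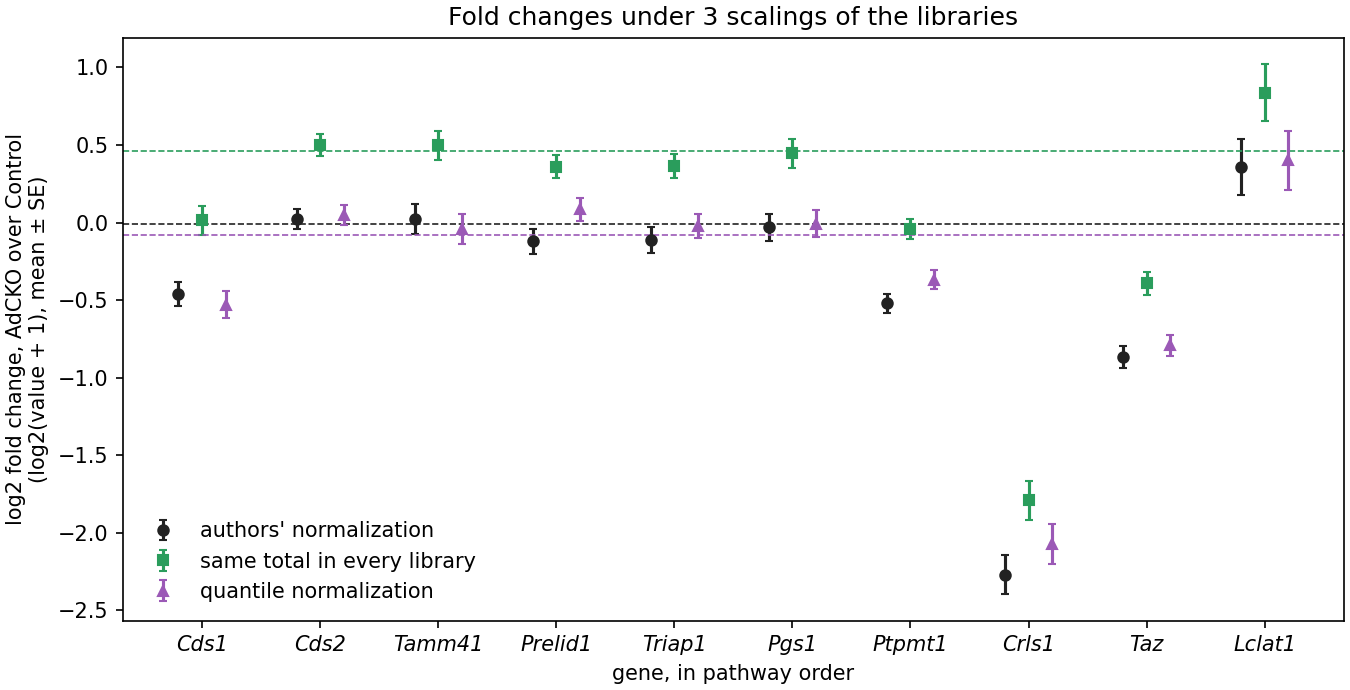
Log2 fold change of each gene, AdCKO over Control, with its SE under the deposited normalization (black circles), the same total in every library (green squares) and quantile normalization (purple triangles), and with dashed lines at the median of all tested genes in the same colors. All points rise together under the same total, where the median of all genes is 0.46, and Crls1 and Taz stay below 0 under all 3 scalings.

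Ratios between pathway genes within a library do not rest on a factor applied to a whole library, apart from the pseudocount of 1 added to each value, but quantile normalization can move them. Of 6 ratios of neighbouring or alternative enzymes, 4 differed between the groups without overlap (exact two-sided permutation test, p = 0.0079 each, Benjamini-Hochberg adjusted p = 0.0119 over the 6). How often other pairs of tested genes separate the groups was not computed. Single genes often did, with 26.4% of all tested genes lower without overlap. The count of 4 in 6 is therefore not read as a feature of the pathway. The largest difference was that of cardiolipin synthase over the enzyme of the first committed step. It restates the loss of Crls1, the deleted gene (−2.27 alone), over Pgs1, which did not change beyond its spread (−0.031). Crls1 over Pgs1 was 9.32 in Control and 1.97 in AdCKO, a log2 difference of −2.24 (SE 0.20), lower in 5 of 5 AdCKO libraries. Ptpmt1 over Pgs1 was 3.39 and 2.41, a log2 difference of −0.49 (SE 0.098), close to that of Ptpmt1 alone (−0.52).

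The other ratios compared enzymes that can stand in for each other or work as partners. Cds1 over Cds2, the pair of endoplasmic reticulum synthases, was 0.695 in Control and 0.498 in AdCKO. The log2 difference was −0.48 (SE 0.087), close to that of Cds1 alone (−0.46). Lclat1 over Taz, the 2 remodeling enzymes, was 0.484 in Control and 1.13 in AdCKO, a log2 difference of 1.23 (SE 0.23). In Control libraries 1 to 5 its log2 value was −0.57, −1.19, −1.35, −0.98 and −1.15, and in AdCKO 1 to 5 it was 0.084, −0.27, 0.50, −0.10 and 0.71. Every AdCKO library thus had a higher ratio than every Control library, although Lclat1 alone overlapped between the groups. With AdCKO 1, 2 and 4 alone the difference was 0.95, and with AdCKO 3 and 5 alone it was 1.65, so its size moved by over 1.5-fold between these subsets. Ptpmt1 over Pgs1 (−0.60 and −0.33) and Cds1 over Cds2 (−0.58 and −0.34) moved as much, and Crls1 over Pgs1 less (−2.46 and −1.92). None of the 4 ratios passed in either subset (exact permutation test, adjusted p = 0.0536 and 0.114), where the smallest p possible is 0.036 and 0.095 before adjustment.

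Pgs1 over Tamm41 did not differ beyond its spread (log2 difference −0.055, SE 0.16, exact permutation test, adjusted p = 0.88). Prelid1 over Triap1 had nearly the same mean in both groups (log2 difference −0.010, SE 0.10, exact permutation test, adjusted p = 0.91), but its spread was unlike. The 5 Control libraries lay between 1.84 and 1.88 on the log2 scale (SD 0.0152), and the 5 AdCKO libraries between 1.65 and 2.19 (SD 0.231). AdCKO 1 and 4 were highest and AdCKO 2 lowest, and each of these held muscle signal. The difference in spread and the part of muscle RNA in it were not tested. Quantile normalization gave 0.11 for Prelid1 over Triap1 and 0.035 for Pgs1 over Tamm41, neither past the test, and left the other 4 called, with Ptpmt1 over Pgs1 at −0.36.

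**Figure D3:**
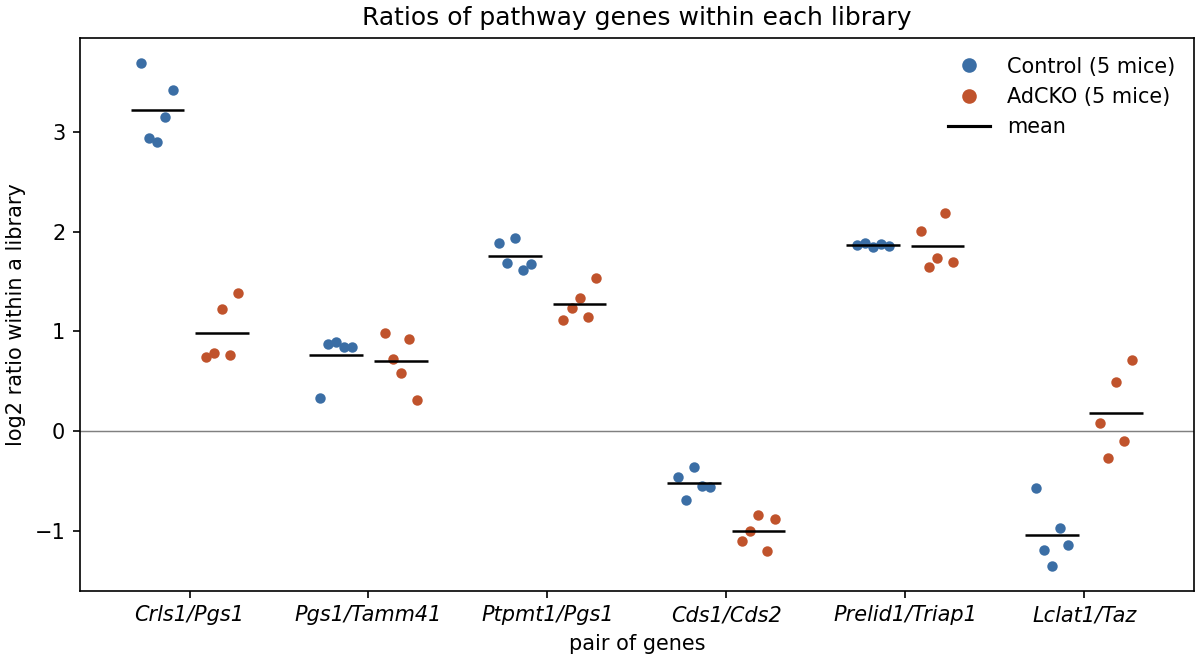
Log2 ratio of 6 pairs of cardiolipin pathway genes within each library (points) for 5 Control (blue) and 5 AdCKO (orange) mice, with black bars at the group means. Crls1/Pgs1, Ptpmt1/Pgs1, Cds1/Cds2 and Lclat1/Taz separate the groups, whereas Pgs1/Tamm41 and Prelid1/Triap1 do not.

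Genes that feed, surround or use the pathway were read from 5 lists with 34 genes in all, of which 31 passed the filter. Of these, 19 were lower, 6 were higher and 6 did not pass, against 28.0% lower and 25.6% higher of all tested genes. Their median log2 fold change was −0.45 against −0.011 over all tested genes. With totals made equal, 11 were lower and 9 higher, where 9.77% of all tested genes were lower and 60.6% higher. All 5 lists were chosen with earlier results of these data known, so their counts are a description only.

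Phosphatidic acid, the starting lipid, is made by acyltransferases that load glycerol-3-phosphate and lysophosphatidic acid. The list also holds Agk, a lipid kinase (log2 fold change −0.445). All 9 tested genes of this list were called, 7 lower and 2 higher (median −0.81), against 28.0% lower and 25.6% higher of all tested genes. With totals made equal, 5 were lower and 2 higher. Agpat2, an endoplasmic reticulum acyltransferase needed for fat storage, was the most abundant of the list and fell from 14560 ± 2391 to 6155 ± 552 (SD, n = 5, log2 fold change −1.23). Agpat6, now named Gpat4, fell from 1254 ± 207 to 440 ± 49.0 (−1.50), and Agpat1 had a log2 fold change of −0.81. Against the list, Agpat9, now named Gpat3, rose from 45.2 ± 3.87 to 192 ± 19.6 (SD, n = 5, 2.06), and Agpat4 stood at 9.29 and 25.0 (1.32). The Control mean of Agpat4 was under 10, so it entered the test only through AdCKO and had to differ. The direction and call of these 5 genes were the same under the same total and under quantile normalization (highest limma adjusted p = 0.00501), but the change of Agpat2 was −0.36 under quantile normalization and −0.75 under the same total. Gpat2 was under the filter in both groups.

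CTP, the other substrate of CDP-diacylglycerol, is made by CTP synthase, and Ctps rose from 15.5 ± 3.02 to 31.7 ± 2.39 (SD, n = 5, log2 fold change 1.01, limma adjusted p = 1.44e-05). Ctps2 did not pass (−0.14, limma adjusted p = 0.24) and had the opposite sign under the same total (0.32), while under quantile normalization it was called lower (−0.44, limma adjusted p = 0.00083). Cdipt, which draws CDP-diacylglycerol into phosphatidylinositol, rose from 176 to 209 (0.25, limma adjusted p = 0.0078). That call was lost when any of Control 1, 3 or 4 or AdCKO 1 to 4 was left out, with log2 fold changes of 0.20 to 0.25 and limma adjusted p of 0.016 to 0.023.

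Of the 4 tested relatives of Prelid1 and other lipid carriers, 1 was called lower and 0 higher, against 28.0% lower and 25.6% higher of all tested genes. Stard7, a carrier of phosphatidylcholine to mitochondria, fell from 464 ± 34.0 to 301 ± 8.54 (SD, n = 5, log2 fold change −0.62, limma adjusted p = 3.78e-06), and under the same total it no longer passed (−0.14). Slmo2, now named Prelid3b, was the most abundant of the list at 1199 and 1081 and did not pass (−0.16), with the opposite sign under both other scalings. Nme4, a CL-binding nucleoside diphosphate kinase, had 0.29 (limma adjusted p = 0.013) and under quantile normalization −0.0044. Plscr3, a phospholipid scramblase of mitochondria, had 0.22 (limma adjusted p = 0.034).

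In the list on remodeling and turnover, 4 of 8 genes were lower, 2 higher and 2 did not pass (median −0.32), against 28.0% lower and 25.6% higher of all tested genes. With totals made equal 2 were lower and 3 higher, and under quantile normalization 3 were lower and 2 higher. Hadha and Hadhb, the subunits of the trifunctional protein of fatty acid oxidation, fell from 6916 ± 391 to 3206 ± 564 (log2 fold change −1.12) and from 4937 ± 294 to 1663 ± 323 (−1.59, SD, n = 5). Under quantile normalization Hadha did not pass (−0.35, limma adjusted p = 0.0109), and Hadhb was −1.02. The alpha subunit, Hadha, has also been described as an acyltransferase for monolysocardiolipin. Pnpla8, a mitochondrial phospholipase, had −0.33 (limma adjusted p = 0.0017), with the opposite sign under the same total (0.15), and it did not pass under quantile normalization (−0.13, limma adjusted p = 0.17). Against the list, Lpgat1, an acyltransferase related to Lclat1, rose from 112 to 161 (0.51), although its groups overlapped. Pla2g15, a lysosomal phospholipase, had 0.26 (limma adjusted p = 0.0087), a call that was lost when any library but AdCKO 3 or 5 was left out (0.22 to 0.27, limma adjusted p of 0.014 to 0.025). With AdCKO 3 and 5 alone against Control, Lpgat1 (0.31), Pla2g15 (0.10) and Pnpla8 (−0.30, limma adjusted p = 0.040) did not pass.

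Transcripts of proteins that bind CL or shape the membrane it sits in were lower for 7 of 7 genes (median −0.72), against 28.0% of all tested genes. The list was chosen with earlier results of these data known, so this count is not read as a feature of the list. Opa1, the fusion protein of the inner membrane, fell from 370 ± 21.9 to 179.5 ± 15.3 (SD, n = 5, log2 fold change −1.04). Immt, the core subunit of the complex that forms cristae junctions, fell from 2637 ± 168 to 1220 ± 140 (SD, n = 5, −1.12). Dnajc19, a prohibitin partner tied to CL remodeling, had −0.97, and Stoml2, a CL-binding scaffold, had −0.72. These 4 genes were called lower under the same total and under quantile normalization as well, where 9.77% and 31.1% of all tested genes were lower. The others of the 7, Phb, Phb2 and Cycs, were not called under either of these scalings.

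**Figure D4:**
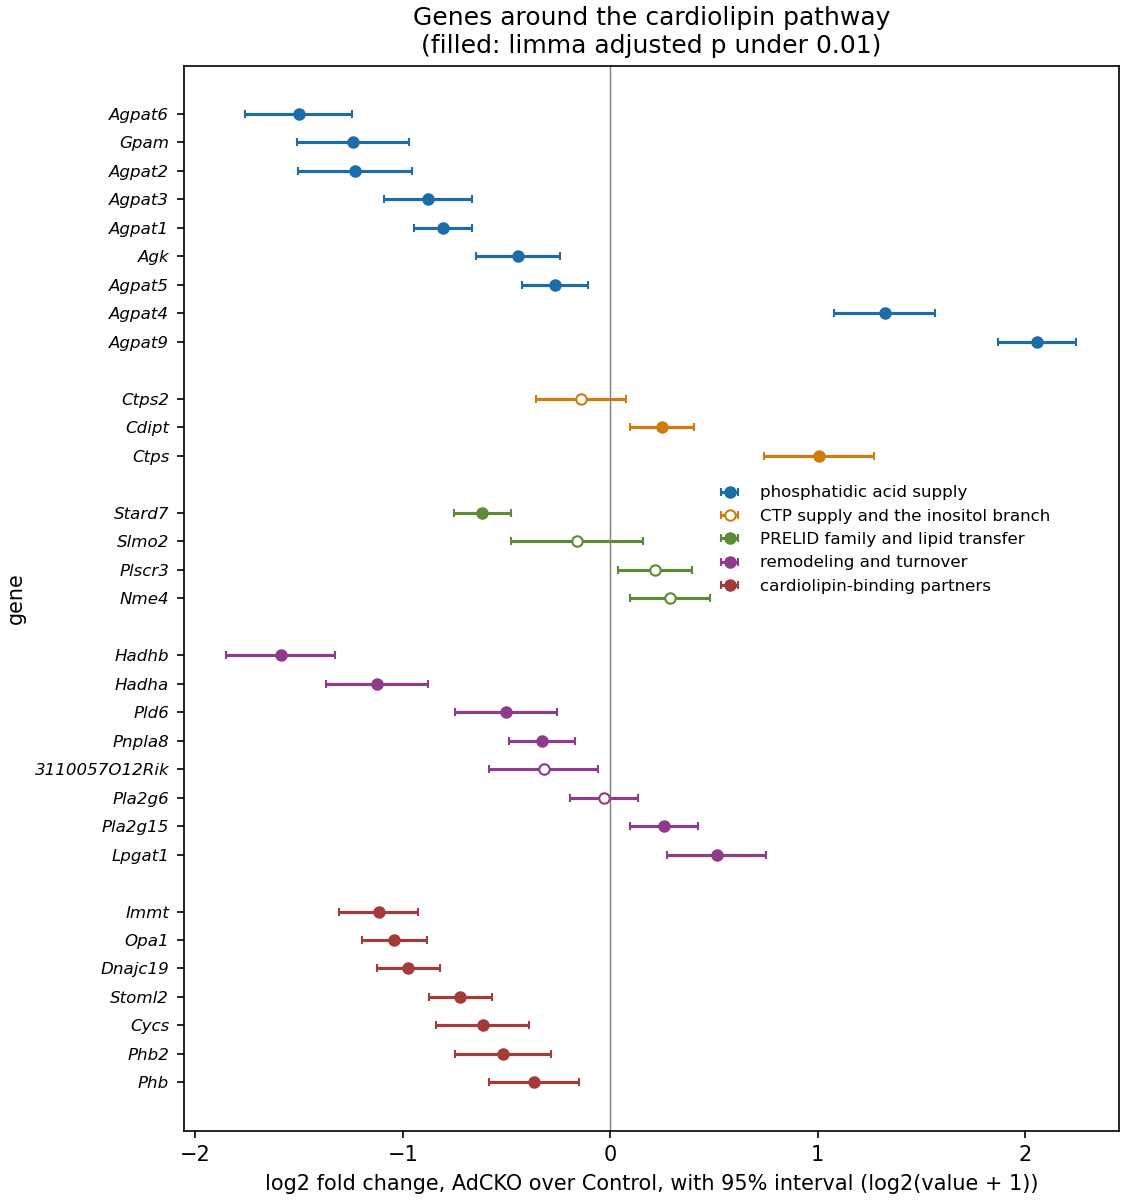
Log2 fold change, AdCKO over Control, with its 95% interval for the 31 tested genes of 5 lists around the cardiolipin pathway under the deposited normalization, with filled points at a limma adjusted p under 0.01 and colors for the lists. Agpat9 (2.06) and Agpat4 (1.32) lie far right of the other genes of their list, and all 7 CL-binding partners lie left of 0.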

How the data were processed

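Polyadenylated RNA from iBAT was sequenced after TruSeq 2 preparation. The authors mapped reads to mm9 with STAR, built tag directories with HOMER, used iRNA-seq to count reads in exons and DESeq2 to normalize them (versions are not given in the sources used here). Per library and gene, the authors deposited 1 signal value, the normalized reads per kb of exon, for 15075 genes, with none at 0. They are not counts and did not fall on steps of whole reads (22.3% to 23.6% within 0.1 read at best, against 20% by chance), so depth is unknown and no counting interval is given. Columns and lists with the authors' own group means, fold changes and adjusted p-values were not used.

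Genes whose mean reached 10 in Control or AdCKO (11244) were compared on log2(value + 1) with limma 3.58.1 in R 4.3.3 (two-sided, eBayes with trend). P-values were adjusted over all of these genes by Benjamini-Hochberg, at a threshold of 0.01. Fold changes on that scale understate those of low genes. The authors ran DESeq2 on counts, for which limma stands in here. The test was checked on simulated data, where 193 of 193 changed genes past the filter were recovered. Recovery of log2 fold changes as small as those of Taz, Ptpmt1, Cds1 or Lclat1, or smaller, was not tested. Within-library ratios of log2(value + 1) were tested by exact permutation of libraries, two-sided, in scipy 1.17.1, at an adjusted p under 0.05. Conditions came from the labels. Replicate numbers did not pair the libraries. Members, ratios and lists were chosen with earlier results of these data known. The genes named are the 10 members, from each list the 4 with the smallest p, the most abundant and called genes against its median, and the 3 genes most like Crls1. Markers named were chosen after their values were seen. Alternatives changed the pseudocount (0.1 or 10), filter, threshold, scaling, trend, weights, block and libraries. Crls1 sequence came from the mm9 reference genome with its gene annotation, and protein sequences were not used here.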

Additional observations from a re-analysis of the deposited data

Results flagged for a closer look

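Among the 34 sets of 5 values examined (10 levels and 6 ratios in each group, and the library totals), 2 held a library apart from the others, by a gap to its neighbour over the whole range above 0.71, which chance gives in about 1 in 20 sets. Ptpmt1 in AdCKO 1 was 248, below the 267 to 269.9 of the other AdCKO libraries (gap over range 0.869). It lay on the far side from Control, and leaving out AdCKO 1 gave a log2 fold change within the range of −0.55 to −0.49 over all libraries left out in turn. The log2 ratio of Pgs1 to Tamm41 in Control 1 was 0.34, below the 0.85 to 0.89 of the other Control libraries (gap over range 0.919). Control 1 had the lowest Pgs1 (99.0) and the highest Tamm41 (78.2) of its group. AdCKO 5, at 0.31, had a ratio as low.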

How the results depend on the processing

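Crls1 and Taz kept their direction and call under every alternative run, with Crls1 from −2.39 to −1.79. With totals made equal, genes lower were 1098 and higher 6811, members lower 2 and higher 6, context genes lower 11, and signs turned for Cds1 (0.014), Prelid1 (0.36), Triap1 (0.37), Pgs1 (0.45), Ctps2 (0.32), Slmo2 (0.32) and Pnpla8 (0.15). The median of all genes shifts by 0.47 under this scaling. Quantile normalization turned Tamm41 (−0.041), Prelid1 (0.087), Nme4 (−0.0044), Slmo2 (0.18), Pgs1/Tamm41 (0.035) and Prelid1/Triap1 (0.11), the ratios being alternatives chosen after seeing the data. Without AdCKO 1, 2 and 4, an alternative chosen after seeing the data like the next, 1 member (Lclat1) and 3 context genes were higher, and Cds2 (−0.045) and Slmo2 (0.12) turned. The 4 called ratios in the order given were then −1.92, −0.33, −0.34 and 1.65 (adjusted p = 0.114, where the smallest exact permutation p is 0.095). Without AdCKO 3 and 5, Tamm41 (−0.053), Pgs1 (0.063), Pgs1/Tamm41 (0.12) and Prelid1/Triap1 (0.082) turned, and those 4 ratios were −2.46, −0.60, −0.58 and 0.95 (adjusted p = 0.0536, exact permutation test). Pairing by replicate number (replicate block) left them at −2.24, −0.49, −0.48 and 1.23 (adjusted p = 0.0938, smallest paired exact permutation p 0.0625). Numbers did not pair the libraries, since same-number correlations ran from −0.268 to 0.098 and 1 of 10 libraries correlated best with its own number. The block gave 4 members lower and 0 higher. Leaving out each library in turn gave 2880 to 3066 genes lower and 2643 to 2887 higher, 4 members lower each time, Cds2 −0.0038 to 0.053, Tamm41 −0.019 to 0.088, Pgs1 −0.073 to 0.031, Pgs1/Tamm41 −0.16 to 0.043 and Prelid1/Triap1 −0.093 to 0.041. Other pseudocounts, filters, trend, weights and an adjusted p under 0.05 changed no member call. Depth is unknown, so how far it limits the 6 genes without a call cannot be given.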

Other observations

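The 3 tested genes whose profile over the 10 libraries was closest to that of Crls1, by the root mean square difference of log2 values centred on each gene's mean, were Mpzl2 (0.156), Adra1a (0.178) and Pank1 (0.21). Mpzl2, a cell adhesion protein, went from 374 ± 48.7 to 86.2 ± 15.4 (SD, n = 5), a log2 change of −2.11. Adra1a, an alpha-1 adrenergic receptor, went from 131 ± 21.2 to 27.7 ± 7.07 (−2.22), and Pank1, a pantothenate kinase of coenzyme A synthesis, from 651 ± 81.0 to 157 ± 45.7 (−2.09). The choice by likeness fixes their direction, so these values are a description with no test.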
